A study of Homo sapiens with 18 samples.

Results

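The neutrophil chemokine cluster on chromosome 4 was described here through the ATAC-seq peaks of a 550 kb window of hg38 that holds CXCL8, CXCL6, CXCL1, CXCL5, CXCL3 and CXCL2. Every peak of the deposited table that touches this window was taken, which gave 73 of 334857 peaks, the first starting at base 73653662 and the last ending at base 74181575. Of the 73, 8 lay over the start of a chemokine gene (the 6 members and their neighbours PF4V1 and PF4), 13 lay inside genes and 52 lay between genes. Accessibility was profiled in Ccd18-Co, an established line of human colon fibroblasts, in 3 groups of 6 libraries, to ask what inflammatory cytokines leave behind in fibroblast chromatin and how a histone deacetylase inhibitor alters it. Unstimulated cells made up the first group, and the labels do not give the handling of these cells. The DMSO and belinostat groups were both pulsed 3 times with OSM, TNF and IL-17A, all at 10 ng/ml, plus 0.1 ng/ml IL-1β. A pulse took 72 h in serum-free medium, recovery in full medium took 96 h, and a rest of 1 week came after the last. The DMSO group was next given this solvent and the belinostat group 250 nM belinostat, in both for 5 days in serum-free medium, and nuclei were collected 2 weeks after that treatment. These doses are those of the labels. DMSO against unstimulated is called the cytokine contrast, belinostat against DMSO the belinostat contrast, and belinostat against unstimulated the residual contrast. The labels do not say whether unstimulated cells went through the serum-free and solvent steps. In the contrasts with them, the cytokines therefore cannot be told apart from these steps, and "after cytokines" names only the groups compared. Each pair of contrasts shares 6 libraries, so values of the contrasts are given side by side and not correlated. All libraries came from 1 cell line, and nothing in the labels says that replicates were grown as separate cultures on separate days, so the p-values measure the spread between these libraries.

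CXCL1, CXCL2, CXCL3, CXCL5, CXCL6 and CXCL8 are secreted CXC chemokines that recruit neutrophils through the receptors CXCR1 and CXCR2, and CXCL8 is also known as interleukin 8. Fibroblasts produce them when IL-1 or TNF activates NF-κB, a family of transcription factors that bind κB sites in the gene promoters, and IL-17A and OSM add to this response, in part through the factors C/EBPβ and C/EBPδ and through mRNA stability. The genes arose by duplication, and the platelet chemokines PF4, PF4V1 and PPBP sit among them in the same cluster.

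The members carry this history in the bases before their starts. The longest word that all 6 share on their own strand in the 150 bases before the RefSeq start was 9 letters long, GGAATTTCC, the core of a κB site. It was found by comparing the promoters themselves and occurred, on either strand, in 0.461% of the 35116 RefSeq promoter stretches (GRCh38.p14, 250 bases before to 50 after the start). The sites are printed because they are the sequence feature common to every member, with the shared word in capitals and each stretch 5′ to 3′ on the strand of its gene.
CXCL8, chr4:73740467-73740496, plus strand: ttgcaaatcgtGGAATTTCCtctgacataa
CXCL6, chr4:73836578-73836607, plus strand: cctgagttcagGGAATTTCCccagcatccc
CXCL1, chr4:73869304-73869333, plus strand: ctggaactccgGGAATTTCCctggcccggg
CXCL5, chr4:73998749-73998778, minus strand: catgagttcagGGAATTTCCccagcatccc
CXCL3, chr4:74038749-74038778, minus strand: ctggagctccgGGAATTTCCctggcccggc
CXCL2, chr4:74099254-74099283, minus strand: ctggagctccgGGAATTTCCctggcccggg
CXCL1, CXCL2 and CXCL3 share nearly the whole of these 30 bases, CXCL5 and CXCL6 form a second pair, and CXCL8 stands alone. Over the 150 bases before the start, 86.1% to 88.7% of aligned positions were identical among CXCL1, CXCL2 and CXCL3 and 89.4% between CXCL5 and CXCL6, against 39.7% to 51.5% for every other pair. Reads that could come from more than 1 of the near-identical promoters cannot be assigned from the counts. Values at the starts of CXCL1, CXCL2 and CXCL3, and at those of CXCL5 and CXCL6, carry that uncertainty. The full κB consensus of the search (GGG, a purine, any 2 bases, 2 pyrimidines, CC) was present in 5 of the 6 members and in 11.3% of all promoter stretches, and CXCL8 was the exception. CXCL8 alone held the AP-1 word TGANTCA (7.71% of all stretches), at 137 to 131 bases before its start, and the TATA word TATAAA (11.5%). The start that opened most is shown at greater length beside that of CXCL1, which borders the opened intergenic peaks, with the same word in capitals.
CXCL5, chr4:73998678-73998827, minus strand: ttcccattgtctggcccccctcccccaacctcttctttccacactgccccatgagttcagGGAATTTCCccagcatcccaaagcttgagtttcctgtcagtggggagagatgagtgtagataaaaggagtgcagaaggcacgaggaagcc
CXCL1, chr4:73869243-73869392, plus strand: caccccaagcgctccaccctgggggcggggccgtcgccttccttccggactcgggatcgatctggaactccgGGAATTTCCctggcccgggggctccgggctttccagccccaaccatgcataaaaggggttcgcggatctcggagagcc

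Counts in peaks ranged from 7077321 to 11352032 per unstimulated library, from 6488975 to 8066642 per DMSO library and from 4661678 to 6370845 per belinostat library, so that the belinostat values rest on the fewest fragments. The window took 0.0291% to 0.0364% of these counts in any library. Peaks at the starts of fibroblast markers were present for 9 of 10 genes (THY1 had none), with a median of 14.7 CPM (counts scaled to library size), against a median of 1.80 for 5 epithelial, 2.82 for 4 endothelial and 0 for 5 leukocyte markers, with no peak at PTPRC or SPI1. TMM factors, which scale each library on its peaks, left a trend with peak strength over the whole table. In the cytokine contrast the median log2 fold change went from 0.79 in the weakest 5% of peaks to -0.37 in the strongest 5%. A second scaling, loess offsets fitted to that trend in each library, is therefore given beside TMM, and a call that only 1 of the scalings makes is named as such.

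The cluster was already accessible in unstimulated cells. In unstimulated libraries the median of its 73 peaks was 5.12 CPM per kb of peak, against 2.86 over all peaks, and its peaks were wider (median 359 bp against 275 bp). Averaged over all 18 libraries, single peaks ran from -0.47 to 4.85 log2 CPM. Levels between genes are compared per length of peak, as CPM per kb. In unstimulated libraries the starts of CXCL1 and CXCL2 were the most accessible, at 17.8 ± 1.4 and 17.4 ± 1.3 CPM per kb (SD, n = 6), a difference smaller than their spread. CXCL3 followed with 12.0 ± 0.6 CPM per kb. CXCL8 and CXCL6 came next and lay within their spread of each other, at 6.32 ± 1.14 and 6.17 ± 0.62 CPM per kb, and CXCL5 was lowest with 3.40 ± 0.55 CPM per kb (SD, n = 6 in each case). The means of DMSO and of belinostat libraries fell in the same order. CXCL5 still had the lowest, at 5.75 ± 1.12 and 6.17 ± 1.17 CPM per kb, but in both groups it lay within its spread of CXCL6. In belinostat libraries CXCL2 and CXCL3 also lay within their spread of each other. All 6 start peaks covered the annotated start, a UTR and coding sequence of the gene. The platelet chemokine starts had lower means, with 2.93 ± 0.86 CPM per kb at PF4V1 and 2.97 ± 0.78 CPM per kb at PF4, both within their spread of CXCL5. PPBP had no peak in its body or the 3 kb before it. The strongest peaks of the window by this measure lay away from the chemokine starts, at chr4:73859463-73860205 between PF4V1 and CXCL1 (49.1 ± 3.5 CPM per kb in unstimulated libraries), at chr4:73916994-73917752 between CXCL1 and PF4 (33.5 ± 3.5) and at chr4:74157667-74158606 inside MTHFD2L (30.7 ± 3.3). The last of these covers the start of a lncRNA (ENSG00000269559) on the other strand. The widest stretch without a peak, 41483 bp, separated CXCL3 from CXCL2.

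**Figure D1:**
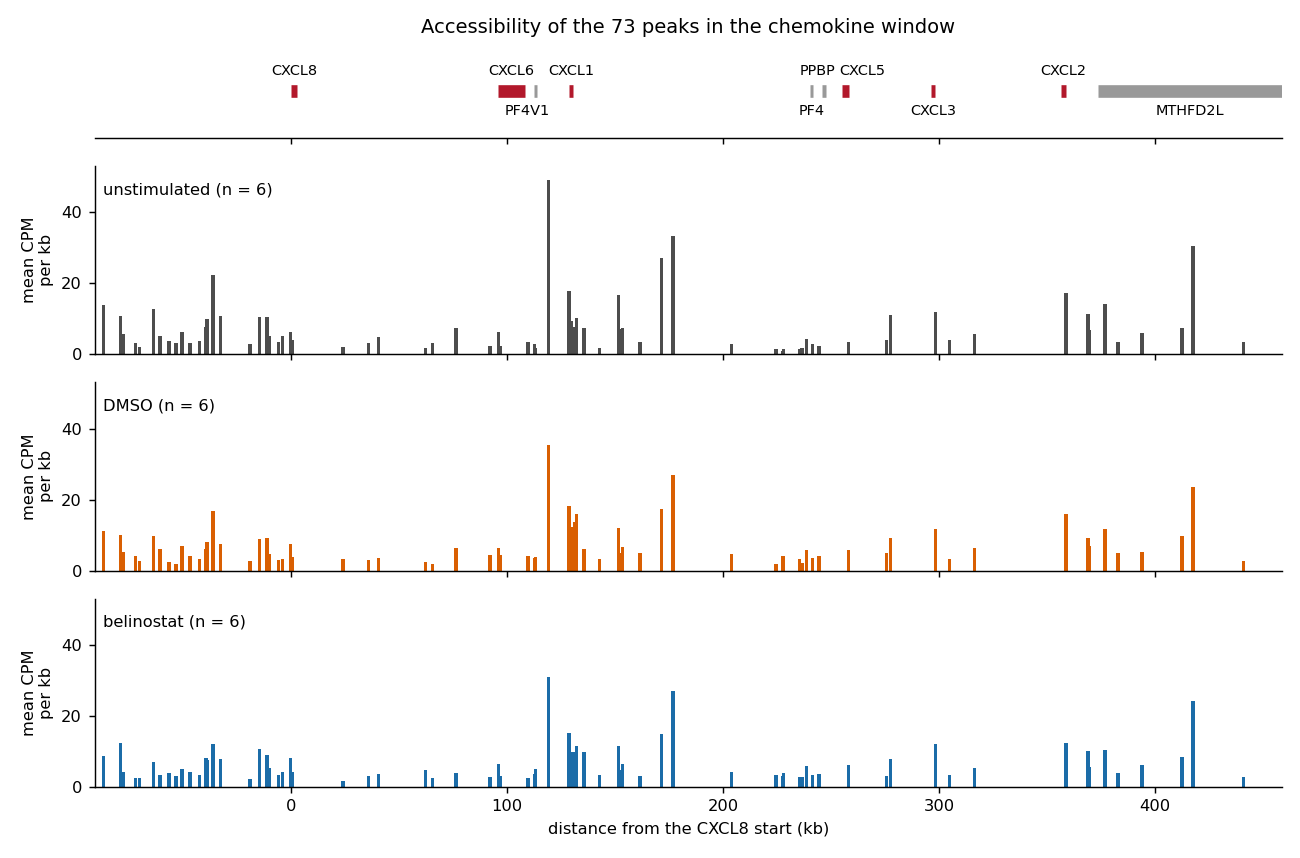
Mean accessibility (CPM per kb of peak, n = 6 libraries a group) of the 73 peaks against their distance from the CXCL8 start in kb, with the 6 member genes in red and neighbours in grey above. Bars stand at peak centres and are drawn wider than the peaks. The tallest bar in each group is the peak between PF4V1 and CXCL1, at 49.1 CPM per kb in unstimulated libraries, 35.3 after DMSO and 30.8 after belinostat.

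With TMM factors, 5 of the 73 peaks opened and 9 closed in the cytokine contrast (edgeR's quasi-likelihood test, adjusted p under 0.05 over all peaks). The background was 9.51% of all peaks opened and 9.73% closed, shares close to those of the 73, so neither count is a result about the cluster as a whole. The median log2 fold change of the 73 was -0.09, against 0.13 over all peaks. With loess offsets 7 opened and 1 closed, where 2.14% and 1.77% of all peaks did, and the median was 0.01 against 0.03. Of the 5 peaks opened with TMM, 4 were among the 7 opened with loess offsets. These 4 were the CXCL5 start, a pair of peaks just past CXCL1 and a peak over the CXCL1P1 pseudogene.

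The CXCL5 start opened by 0.74 ± 0.17 (log2 fold change ± SE, adjusted p = 0.00148), or 1.67-fold, after cytokines. CXCL5 encodes a chemokine of epithelial and stromal cells that acts on CXCR2. Its peak (chr4:73998149-73999058) measured from 1.52 to 2.08 log2 CPM with a median of 1.72 in unstimulated libraries, from 2.13 to 2.89 with a median of 2.43 in DMSO libraries and from 2.32 to 3.00 with a median of 2.49 in belinostat libraries. Every DMSO and every belinostat library was above every unstimulated library, and the stimulated groups overlapped throughout. Belinostat against DMSO gave 0.10 ± 0.16 (adjusted p = 0.778), and the residual contrast was 0.85 ± 0.18 (adjusted p = 8.43e-05). With loess offsets the cytokine change was 0.99 ± 0.17, and the call held in 20 of 21 alternatives, whose adjusted p ran from 1.56e-05 to 0.371. The exception was TMM over the weaker 50% of peaks. The peak also covers an exon of a lncRNA (ENSG00000287037) on the other strand, which accessibility cannot separate from CXCL5.

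CXCL1, CXCL2 and CXCL3, the growth-related chemokines, began from strong starts that changed little with TMM. The CXCL1 start (chr4:73868608-73869926) ran from 4.44 to 4.698 log2 CPM with a median of 4.57 in unstimulated libraries, from 4.28 to 4.91 with a median of 4.59 after DMSO and from 4.10 to 4.84 with a median of 4.26 after belinostat. All 3 groups overlapped. Its cytokine log2 fold change was 0.03 ± 0.11 (adjusted p = 0.891), in a 5% class of the strongest peaks whose median was -0.37. With loess offsets, which remove that trend, the value was 0.40 ± 0.07 and passed the test (adjusted p = 4.21e-05, with 4.21e-05 to 0.976 over the 21 alternatives). The CXCL3 start (chr4:74038113-74039524) behaved likewise, with -0.04 ± 0.12 under TMM (adjusted p = 0.833) and 0.31 ± 0.08 under loess offsets (adjusted p = 0.0124, range 0.0124 to 0.978). At CXCL2 (chr4:74098636-74099818) the values were -0.12 ± 0.11 (adjusted p = 0.460) and 0.24 ± 0.08 (adjusted p = 0.0498, range 0.0123 to 0.722), the second barely past the threshold. Whether these 3 starts opened thus depends on the scaling, and the direction at CXCL3 and CXCL2 turned with it.

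Of the member starts, CXCL2 had the largest difference between belinostat and DMSO libraries. It ranged from 4.29 to 4.57 log2 CPM in unstimulated libraries (median 4.36), from 4.14 to 4.49 in DMSO libraries (median 4.19) and from 3.56 to 4.26 in belinostat libraries (median 3.85). Belinostat libraries lay below every unstimulated library and overlapped the DMSO libraries only through belinostat 1. The belinostat contrast gave -0.38 ± 0.12 (adjusted p = 0.0645) and missed the threshold, which 4 of 21 alternatives passed (adjusted p from 0.00787 to 0.194). The residual contrast fell by 0.51 on the log2 scale (adjusted p = 0.00054) with TMM and was 0.02 ± 0.08 (adjusted p = 0.899) with loess offsets, so the residual call rests on the scaling. The CXCL2 start peak also covers a lncRNA (ENSG00000289241) on the other strand, which accessibility cannot separate from CXCL2.

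The starts of CXCL8 and CXCL6 did not pass the test in the cytokine contrast with either scaling. CXCL8 (chr4:73740351-73740793) ranged from 1.39 to 2.00 log2 CPM with a median of 1.56 in unstimulated libraries, from 1.44 to 2.41 with a median of 1.75 after DMSO and from 1.28 to 2.197 with a median of 2.04 after belinostat, and the groups overlapped. The log2 fold change was 0.27 ± 0.19 (adjusted p = 0.319) with TMM and 0.45 ± 0.19 (adjusted p = 0.155, range 0.0526 to 0.683) with loess offsets. Its residual contrast was 0.40 ± 0.20 (adjusted p = 0.107) with TMM and passed the test with loess offsets at 0.65 ± 0.19 (adjusted p = 0.0197, range 0.00289 to 0.504). CXCL6 (chr4:73836315-73837206), close kin of CXCL5 in promoter sequence, had a cytokine log2 fold change of 0.05 ± 0.16 (adjusted p = 0.858) with TMM and 0.32 ± 0.14 (adjusted p = 0.188) with loess offsets. The lncRNA UMLILO before CXCL8, which is known to contact the chemokine genes in other cells, had no peak over its body.

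**Figure D2:**
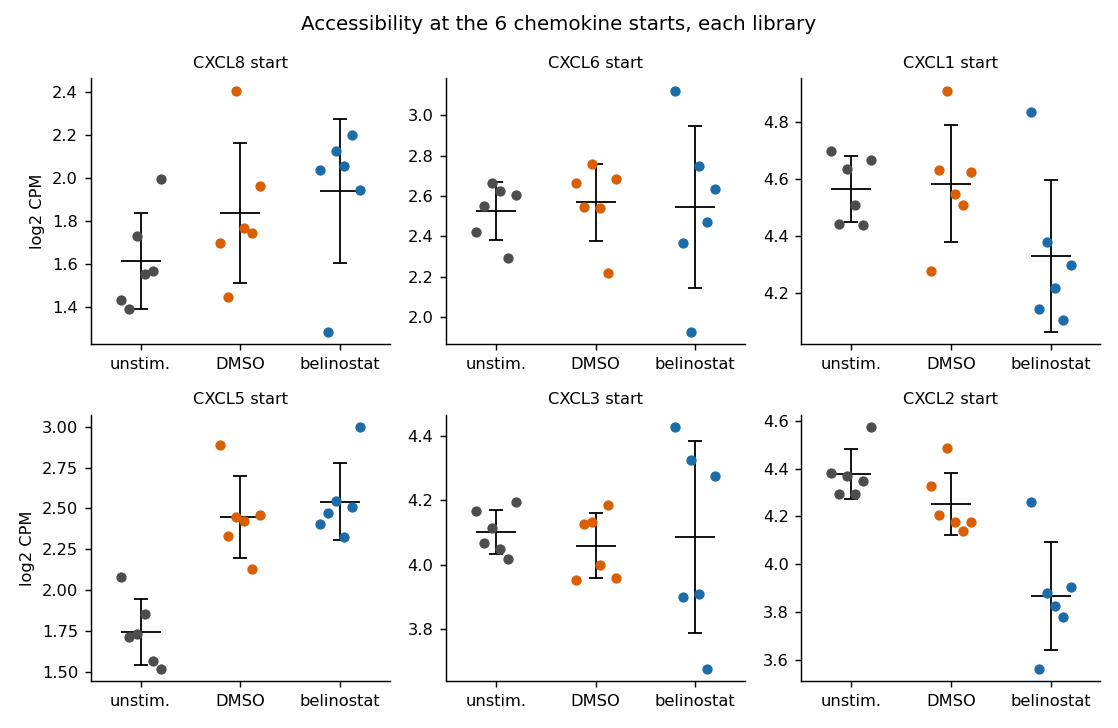
Accessibility (log2 CPM, prior count 2, TMM) at the start of each of the 6 chemokine genes, a point for each library, with the mean and SD of the 6 libraries of a group in black. Vertical axes differ between panels. The CXCL5 panel has all DMSO and belinostat libraries above the unstimulated ones, and the CXCL2 panel has all belinostat libraries below them.

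Past the 3′ end of CXCL1, a pair of intergenic peaks opened after cytokines. The wider one was called lower in the belinostat contrast with TMM only, and the narrower one was not called. The wider one, chr4:73872347-73873261, begins 2954 bp past the CXCL1 start. It ranged from 2.80 to 3.63 log2 CPM in unstimulated libraries (median 3.28), from 3.49 to 4.38 in DMSO libraries (median 3.78) and from 3.12 to 3.82 in belinostat libraries (median 3.43). Every DMSO library was above 5 of the 6 unstimulated libraries. The cytokine change was 0.65 ± 0.13 (adjusted p = 0.00021), 1.57-fold, and 0.98 ± 0.10 with loess offsets, with a call in 20 of 21 alternatives (adjusted p from 6.19e-13 to 0.49998). In the belinostat contrast it fell by 0.48 on the log2 scale (SE 0.13, adjusted p = 0.0244), to a residual of 0.17 ± 0.14 (adjusted p = 0.366). Under loess offsets the belinostat value of -0.34 ± 0.10 had an adjusted p of 0.0618, and the call held in 14 of 21 alternatives (adjusted p from 0.00325 to 0.190). The loess residual, 0.65 ± 0.11 (adjusted p = 1.52e-05), passed the test in the opened direction. The narrower peak, chr4:73871897-73872212 (412 fragments over all libraries), ranged from 1.04 to 1.70 log2 CPM in unstimulated (median 1.41), from 1.68 to 2.40 in DMSO (median 2.25) and from 1.28 to 2.41 in belinostat libraries (median 1.75). Only the lowest DMSO library reached into the unstimulated range. It opened by 0.83 ± 0.19 (adjusted p = 0.00121), and its belinostat value was -0.48 ± 0.19 (adjusted p = 0.180). Its residual log2 fold change was 0.35 with TMM.

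These intergenic peaks are shown because they are the called peaks nearest to CXCL1 in the cytokine contrast other than, under loess offsets, its start. The narrower one holds a single AP-1 word (TGANTCA) and the wider one a pair of C/EBP words (TTGCNNAA, either strand), of which 1 falls in the 300 bases shown. The capitals mark these words.
Narrower peak, chr4:73871913-73872212, plus strand: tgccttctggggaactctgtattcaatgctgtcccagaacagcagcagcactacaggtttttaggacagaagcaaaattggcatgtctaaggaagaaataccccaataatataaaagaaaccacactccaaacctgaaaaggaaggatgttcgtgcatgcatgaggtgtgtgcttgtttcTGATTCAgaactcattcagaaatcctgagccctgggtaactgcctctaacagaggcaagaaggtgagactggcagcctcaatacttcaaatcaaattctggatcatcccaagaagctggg
Wider peak, chr4:73872524-73872823, plus strand: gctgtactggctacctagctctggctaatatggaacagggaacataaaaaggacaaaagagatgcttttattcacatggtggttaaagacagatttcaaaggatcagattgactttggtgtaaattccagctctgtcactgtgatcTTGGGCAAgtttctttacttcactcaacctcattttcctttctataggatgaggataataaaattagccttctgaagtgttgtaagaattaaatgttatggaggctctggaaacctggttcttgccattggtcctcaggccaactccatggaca
Neither peak held the shared κB word or the κB consensus. Of the 73 peaks of the window, 22 held an AP-1 word and 23 a C/EBP word, so a match to either is common here. The shared κB word was present in 8 of the 73, the 6 member starts and 2 intergenic peaks before CXCL8. Of the 8 peaks opened under either scaling, 4 held it, all of them member starts.

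The fourth peak opened under both scalings, chr4:73944062-73944901, covers the start of CXCL1P1, a processed pseudogene with CXCL1 sequence. Unstimulated libraries ranged from 0.83 to 1.68 log2 CPM (median 1.42), DMSO libraries from 1.39 to 2.44 (median 2.09) and belinostat libraries from 1.55 to 2.17 (median 1.92). The groups overlapped in their edges. It opened by 0.74 ± 0.20 (adjusted p = 0.00489), its belinostat value was -0.19 ± 0.19 (adjusted p = 0.631) and its residual was 0.54 ± 0.21 (adjusted p = 0.0376). Reads from CXCL1 itself and from this copy could be confused where the sequence is alike. The remaining peak opened with TMM, chr4:73968196-73968356 between CXCL1P1 and PF4, was the weakest of the window, with 55 fragments over all 18 libraries. Its 1.78 ± 0.55 (adjusted p = 0.0143) fell to 1.318 ± 0.55 under loess offsets, short of the threshold (adjusted p = 0.150, range 0.00894 to 0.150). All 9 peaks nearest to PF4 had cytokine log2 fold changes above 0 with TMM (median 0.70), and 8 of 9 did with loess offsets (median 0.39). In the whole window 35 and 40 of the 73 did. Most of the 9 were weak peaks, and weak peaks rose over the whole table with TMM. What part that trend has in these values was not tested.

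**Figure D3:**
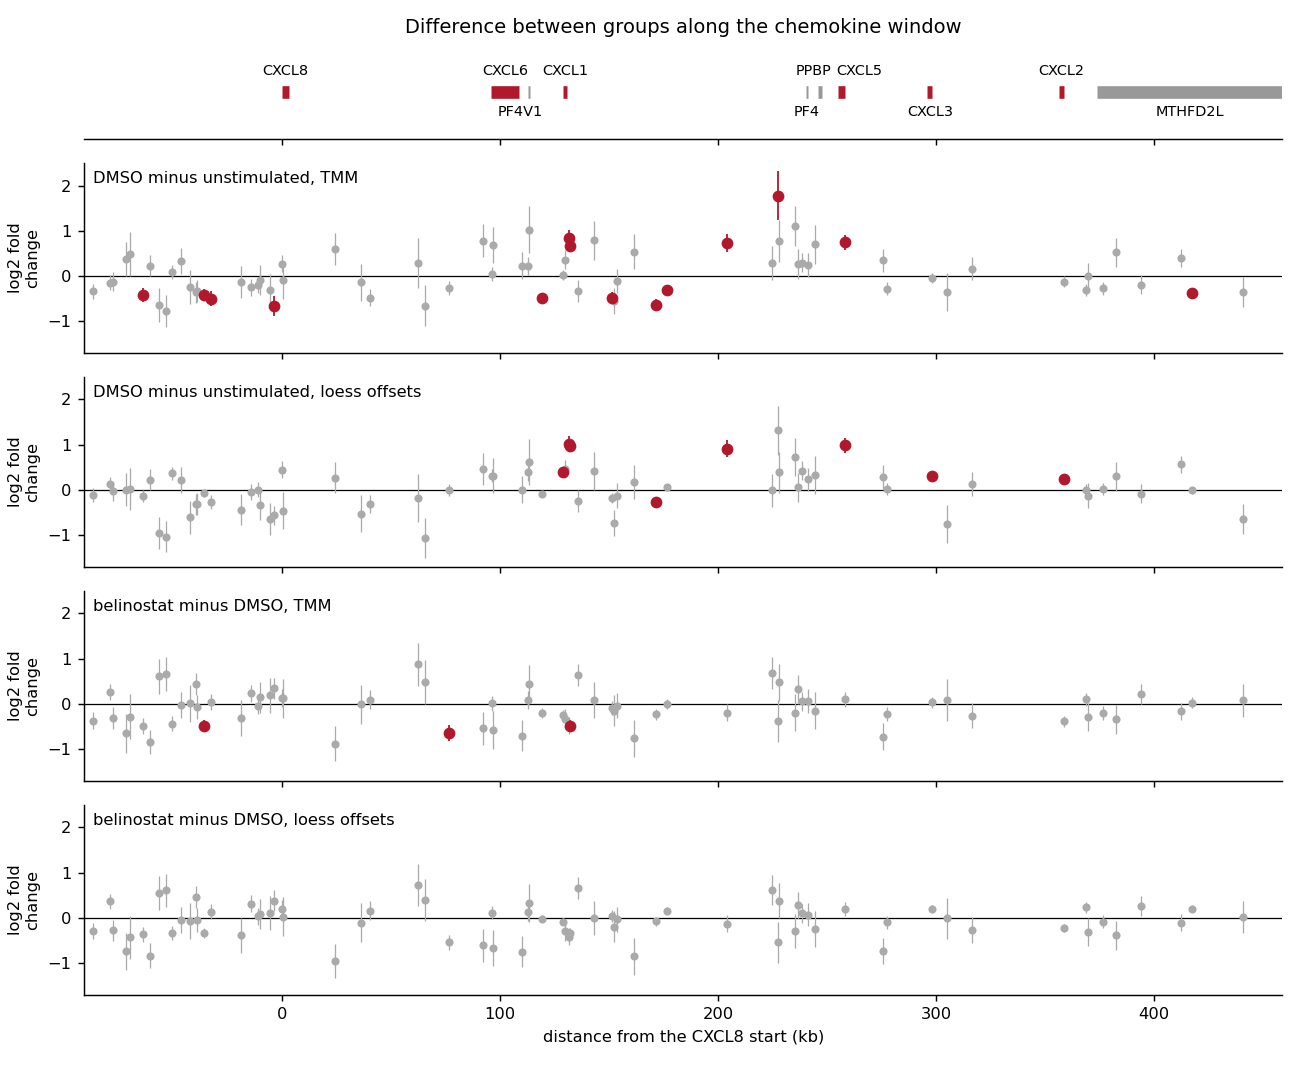
Log2 fold change with SE of each of the 73 peaks against distance from the CXCL8 start in kb, for the cytokine contrast (upper panels) and the belinostat contrast (lower panels), each under TMM factors and loess offsets. Red points have an adjusted p under 0.05. The pair of peaks past CXCL1, the CXCL1P1 peak and the CXCL5 start are red in both cytokine panels, and the 3 red points of the belinostat TMM panel are grey with loess offsets.

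The 9 peaks that closed after cytokines with TMM lay away from the chemokine starts and had average log2 CPM from 1.41 to 4.85. Among the 20 peaks nearest to CXCL8, 3 closed and none opened with TMM, where 9.73% and 9.51% of all peaks did. Values were below 0 at 16 of these 20, and at 38 of the 73 of the whole window. With loess offsets none of the 20 was called, where 1.77% of all peaks closed and 2.14% opened. This stretch was picked after its values were seen, so the counts are no result about it. The 9 closed peaks had log2 fold changes from -0.66 at chr4:73736506-73737090, 3429 bp before CXCL8, to -0.32 at chr4:73916994-73917752. A single one of the 9 also closed with loess offsets, chr4:73911727-73912540 in the gap between CXCL1 and PF4. It ranged from 4.17 to 4.82 log2 CPM in unstimulated libraries (median 4.38), from 3.57 to 4.03 in DMSO libraries (median 3.86) and from 3.18 to 4.10 in belinostat libraries (median 3.62). Every stimulated library, with either agent, was below every unstimulated library. It fell by 0.63 on the log2 scale (SE 0.12, adjusted p = 7.40e-05) with TMM and by 0.27 (SE 0.08, adjusted p = 0.0401) with loess offsets, and it was called in all 21 alternatives. Belinostat against DMSO gave -0.23 ± 0.13 (adjusted p = 0.368). At the strongest peak of the window, chr4:73859463-73860205, DMSO libraries (4.40 to 4.91, median 4.84) were all below unstimulated ones (5.06 to 5.30, median 5.20). Its change of -0.48 ± 0.11 (adjusted p = 0.00110) with TMM shrank to -0.10 ± 0.06 (adjusted p = 0.389) with loess offsets, so that the closing rests on the scaling there.

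With TMM no peak of the cluster opened and 3 closed in the belinostat contrast, where 0.607% of all peaks opened and 1.75% closed. At an unadjusted p under 0.05 there were 2 opened and 12 closed, where 8.21% and 7.68% of all peaks were. DESeq2 gave an adjusted p to 44 of the 73 and called 0 and 4, against 0.85% and 4.51% of the 127108 peaks to which it gave one. The median log2 fold change was -0.04, against 0.01 over all peaks. With loess offsets edgeR called 0 in either direction (1.03% and 1.42% of all peaks), with 5 and 12 at an unadjusted p under 0.05 (8.04% and 7.67%). None of the 3 closed peaks lay at a gene start. One is the wider peak past CXCL1. The peak 19 kb before CXCL6, chr4:73816678-73817519, ranged from 2.42 to 3.00 log2 CPM in unstimulated (median 2.69), from 2.21 to 2.77 in DMSO (median 2.41) and from 1.52 to 2.17 in belinostat libraries (median 1.92). Belinostat libraries were below every library of both other groups. It fell by 0.64 (SE 0.18, adjusted p = 0.0277) with TMM, and loess offsets gave -0.54 ± 0.17 (adjusted p = 0.0590, with 0.0136 to 0.0936 over the alternatives). The peak 35 kb before CXCL8, chr4:73704342-73705099, closed with TMM in both steps, by 0.41 after cytokines (SE 0.12, adjusted p = 0.0116) and by 0.49 in the belinostat contrast (SE 0.14, adjusted p = 0.0242). With loess offsets neither step passed, at -0.07 ± 0.09 after cytokines (adjusted p = 0.693, range 0.000224 to 0.693) and -0.33 ± 0.11 in the belinostat contrast (adjusted p = 0.0734, range 0.00545 to 0.102). It ranged from 4.00 to 4.21 log2 CPM in unstimulated (median 4.10), from 3.24 to 3.95 in DMSO (median 3.68) and from 3.02 to 3.53 in belinostat libraries (median 3.10), with every stimulated library below the unstimulated ones. Its residual contrast passed the test with both scalings, at -0.89 ± 0.13 with TMM (adjusted p = 1.27e-08). Its loess value was -0.40 ± 0.10 (adjusted p = 0.00471).

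The belinostat calls depended on single libraries. The 3 closed peaks became 0 without belinostat 3, 1 without any of belinostat 2, belinostat 4, DMSO 2, DMSO 3 or DMSO 6, and 7 without belinostat 1. Over all peaks 5865 closed with every library, 4665 without belinostat 3 and 8703 without belinostat 1. Belinostat 1 had the smallest TMM factor of its group (0.976, against 1.06 to 1.18) and the highest level of its group at the starts of CXCL1, CXCL2, CXCL3 and CXCL6. What part this library's composition has in the result was not tested.

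**Figure D4:**
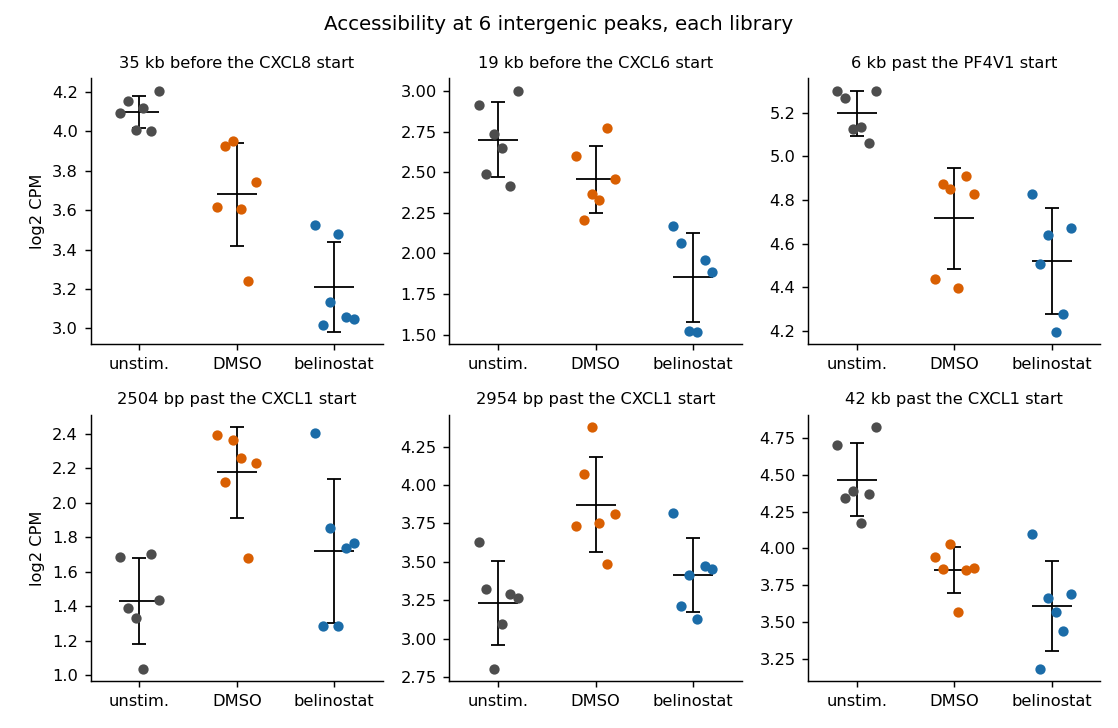
Accessibility (log2 CPM, prior count 2, TMM) at 6 intergenic peaks of the window, a point for each library, with group mean and SD in black. Vertical axes differ between panels. The pair of peaks just past CXCL1 has its highest group mean in DMSO libraries. The 3 peaks of the top row and the one 42 kb past CXCL1 have theirs in unstimulated libraries.

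In the residual contrast 5 peaks stood higher and 13 lower in belinostat than in unstimulated libraries with TMM, where 16.8% and 13.7% of all peaks did, and 9 and 5 with loess offsets (4.41% and 4.34%). The median of the 73 was -0.13 with TMM, against 0.20 over all peaks. Of the 9 peaks closed after cytokines, 8 were among the 13 lower ones, and of the 5 opened, 2 were among the 5 higher ones, the CXCL5 start and the CXCL1P1 peak. The contrasts share the unstimulated libraries. At chr4:73676700-73677392, upstream of the window's first chemokine gene, belinostat libraries (1.03 to 3.19 log2 CPM, median 2.26) stood below unstimulated ones (3.09 to 3.31, median 3.20) with 1 library in their range. The residual change was -0.90 ± 0.16 (adjusted p = 4.98e-06) with TMM and -0.50 ± 0.15 (adjusted p = 0.0198) with loess offsets, and it was called in all 21 alternatives. Loess offsets placed 5 of the 6 member starts higher in belinostat than in unstimulated libraries, with 1.19 ± 0.17 at CXCL5, 0.65 ± 0.19 at CXCL8, 0.51 ± 0.08 at CXCL3, 0.43 ± 0.15 at CXCL6 and 0.31 ± 0.08 at CXCL1, while TMM called CXCL5 higher, CXCL2 lower and none of the other 4. The 5 higher peaks became 1 without belinostat 4 and 3 without unstimulated 1, unstimulated 6 or belinostat 3. Over all peaks 56111 stood higher with every library and 37404 without belinostat 4.

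The strength of a peak went with its TMM change across the table and the cluster. In the cytokine contrast 39 of the 73 peaks lay above the median of all peaks of their strength class (20 classes of equal size), including all 6 member starts. These starts exceeded their class medians by 0.24 (CXCL2), 0.33 (CXCL3), 0.32 (CXCL6), 0.40 (CXCL1), 0.49 (CXCL8) and 1.02 (CXCL5) on the log2 scale. The starts of the neighbours PF4V1 and PF4 exceeded theirs too, by 0.44 and 0.30, so this is not particular to the members. The distances are a description, with no test of the 6 as a group. In the belinostat contrast the 6 member starts lay from -0.22 (CXCL2) to 0.20 (CXCL3) from their class medians.

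**Figure D5:**
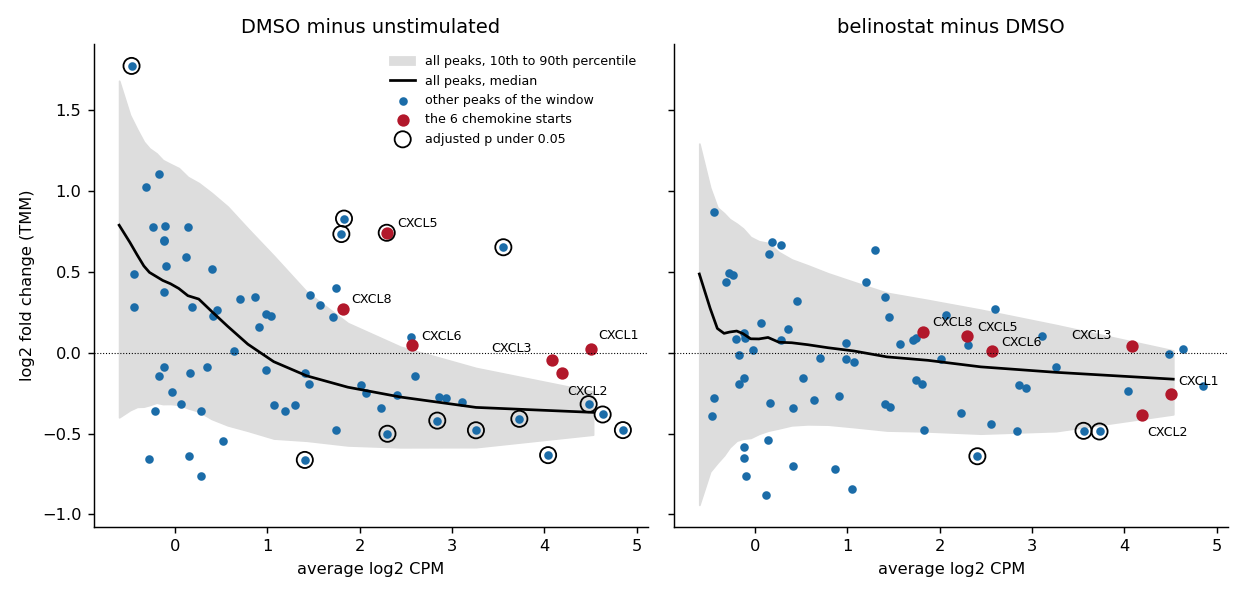
Log2 fold change (TMM) of the 73 peaks against their average log2 CPM for the cytokine contrast (left) and the belinostat contrast (right), over the median and the 10th to 90th percentile of all 334857 peaks in 20 classes of strength. The 6 chemokine starts (red) lie above the median line on the left. Open circles mark an adjusted p under 0.05, 14 on the left and 3 on the right.

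Counts were also summed over each gene's body and the 3 kb before it, as a locus. These sums were scaled by TMM over the 18893 protein-coding loci, so that their fold changes sit on another scale from those of the peaks. The loci of CXCL2, CXCL3 and CXCL5 each held 1 peak, the start peak described above. Their values are those same counts, tested among loci in place of peaks, and add no separate measurement. Of the 6 member loci, 3 were higher and 0 lower after cytokines, where 19.5% of all loci were higher and 12.2% lower (edgeR's quasi-likelihood test). CXCL5 gave 0.99 ± 0.17 (adjusted p = 0.000291), CXCL1 0.30 ± 0.07 (adjusted p = 0.00297) and CXCL8 0.45 ± 0.17 (adjusted p = 0.0495). CXCL6 (0.36 ± 0.14, adjusted p = 0.0509) and CXCL3 (0.20 ± 0.08, adjusted p = 0.0634) fell just short, and CXCL2 was at 0.12 ± 0.07 (adjusted p = 0.186). Scaled by the factors of the peaks, which was tried after seeing the data, only CXCL5 was higher (0.74, adjusted p = 0.000625). With loess offsets CXCL5 and CXCL1 were, at 0.56 and 0.32, where 13.7% of all loci were higher and 7.28% lower, and CXCL8 was at -0.03 (adjusted p = 0.936). In the belinostat contrast 0 member loci were higher and 1 lower with both scalings (1.76% and 3.72% of all loci with TMM, 2.41% and 2.45% with loess offsets). CXCL2 fell by 0.29 (SE 0.08, adjusted p = 0.0265), by 0.32 with loess offsets (adjusted p = 0.0151) and by 0.38 with the factors of the peaks (adjusted p = 0.0375), and the call was lost without DMSO 1, DMSO 3 or belinostat 2. Tested among all peaks, the same counts of the CXCL2 start missed the threshold with TMM and with loess offsets. Without belinostat 1 there were 2 lower loci. In the residual contrast 4 loci were higher and 0 lower (27% and 24.2% of all loci), with CXCL5 at 1.18 ± 0.17, CXCL8 at 0.68 ± 0.18, CXCL6 at 0.40 ± 0.15 and CXCL3 at 0.33 ± 0.09. With loess offsets 2 were higher and 1 lower (20.3% and 17.3% of all loci). CXCL5 (0.59 ± 0.17) and CXCL3 (0.25 ± 0.09) kept the call, CXCL8 (0.02 ± 0.20, adjusted p = 0.953, range 0.000995 to 0.953) and CXCL6 (-0.08 ± 0.15, adjusted p = 0.723, range 0.00275 to 0.723) lost it, and CXCL2 was lower (-0.23 ± 0.08, adjusted p = 0.0223, range 6.86e-07 to 0.550). Among the neighbours, PF4V1 was higher after cytokines (0.55 ± 0.18, adjusted p = 0.0200) but not with loess offsets (0.10, adjusted p = 0.708), and PF4 and MTHFD2L did not pass in the cytokine contrast. Loci of marker genes of other cell types moved too. After cytokines, 3 of 5 leukocyte loci were higher with TMM (CD3E by 1.28, ITGAM by 0.80 and SPI1 by 0.31), as were 2 of 4 endothelial (PECAM1 by 0.46, CDH5 by 0.43), 1 of 5 epithelial (VIL1 by 0.52) and 1 of 10 fibroblast loci (PRRX1 by 0.45), while PDGFRB and THY1 of the fibroblast list were lower (-0.17 and -0.23). All of these but CD3E also passed with loess offsets. The summed level of the leukocyte loci was 49.3 to 57.6 CPM in unstimulated libraries, 61.1 to 73.3 after DMSO and 59.5 to 80.2 after belinostat, without overlap between unstimulated and stimulated libraries. That of the endothelial loci was 235 to 255, 253 to 277 and 246 to 256 CPM, that of the epithelial loci 97.3 to 112, 98.3 to 126 and 108 to 145 CPM, and that of the fibroblast loci 718 to 751, 640 to 721 and 640 to 743 CPM. Their part in the member and receptor results was not tested.

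The genes of this pathway elsewhere in the genome were counted in the same way. Of 20 receptors and regulators, 2 were higher and 4 lower after cytokines, against 19.5% and 12.2% of all loci, so neither count is a result about the list. The 2 were the receptors of these chemokines, which lie side by side on another chromosome and may share peaks. CXCR2 rose by 1.15 ± 0.11 (adjusted p = 5.14e-08) and CXCR1 by 0.90 ± 0.15 (adjusted p = 0.000213), and with loess offsets by 0.97 and 0.66. CXCR2 ranged from 2.54 to 3.00 log2 CPM in unstimulated (median 2.85), from 3.74 to 4.05 in DMSO (median 3.94) and from 3.64 to 4.09 in belinostat libraries (median 3.85), and no stimulated library overlapped the unstimulated ones. The 4 lower loci were IL1R1, the IL-1 receptor (-0.14 ± 0.04), TRAF3IP2, the adaptor of the IL-17 receptor (-0.14 ± 0.04), and the transcription factor genes CEBPB (-0.22 ± 0.06) and CEBPD (-0.17 ± 0.05). With loess offsets IL1R1 and CEBPB still passed. In the belinostat contrast 0 of the 20 were higher and 1 was lower (1.76% and 3.72% of all loci), TNFRSF1A, the main TNF receptor, which fell by 0.27 (SE 0.04, adjusted p = 0.00018) and by 0.23 with loess offsets. NFKB1, RELA, REL, NFKBIA and TNFAIP3, the NF-κB subunits and their inhibitors, did not pass in either of these contrasts. In the residual contrast 2 were higher (CXCR1 and CXCR2) and 9 lower (27% and 24.2% of all loci), from -0.39 ± 0.07 at CEBPB and -0.32 ± 0.04 at TNFRSF1A to -0.10 ± 0.04 at PRDM1 (adjusted p = 0.0389, passed in 12 of 24 alternatives), with IL1R1, TRAF3IP2, NFKB2, RELA, NFKBIA and CEBPD between them. With loess offsets 3 were higher and 7 lower (20.3% and 17.3% of all loci). PRDM1 (-0.01, adjusted p = 0.829, range 1.29e-06 to 0.866) and TRAF3IP2 (-0.09, adjusted p = 0.0692, range 9.45e-07 to 0.521) lost the call, and IL17RA, the IL-17 receptor, gained one (0.16, adjusted p = 0.0416, range 1.15e-05 to 0.972).

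The genes whose locus pattern over the 18 libraries was most like that of a member were sought by the root mean square difference of centred log2 CPM, among 17349 protein-coding genes. For CXCL5 they were GABRA2 (0.195) and PID1 (0.214), against a root mean square of 0.534 for CXCL5 itself. For CXCL1 they were KLC4 (0.115) and RBM47 (0.118) against 0.171, for CXCL2 IFI35 (0.0864) and TDRD7 (0.0868) against 0.162, and for CXCL3 PDZK1 (0.106) against 0.181. For CXCL8 they were ITGA6 (0.201) and KREMEN2 (0.202) against 0.334, and for CXCL6 P2RY6 (0.171) and ENSG00000266202 (0.170) against 0.268. No member was among the genes most like another. Between the start peaks themselves the smallest difference was that of CXCL1 and CXCL2 (0.168) and the largest that of CXCL2 and CXCL5 (0.597).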

How the data were processed

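Bulk ATAC-seq (Omni-ATAC) had been run on 18 libraries of Ccd18-Co cells. The authors trimmed and aligned reads to hg38 with the ENCODE pipeline, called peaks with MACS2, built a consensus set and used csaw for counting. Fragment counts per peak and library, unnormalized, are what the authors deposited. Reads outside peaks and transposase offsets were not analysed here, so the authors' background-bin factors were replaced by TMM factors of the peaks. Peak starts, counted from 0 in the table, were moved by 1.

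Counts of all 334857 peaks were tested with edgeR 4.0.16 (R 4.3.3) by glmQLFit and glmQLFTest (earlier quasi-likelihood method), 1 mean per group, no covariate, and p-values adjusted by Benjamini-Hochberg over all peaks. The filter, an average log2 CPM over -3, removed 0 peaks. Log2 CPM used a prior count of 2, and the SE was the log2 fold change over the square root of F. Loci were sums over peaks that overlap a gene body or its 3 kb upstream (GENCODE v44 genes). Alternatives were library totals, DESeq2 1.42.0, loess offsets (limma 3.58.1), TMM computed on 10 kb bins or on the weaker 50% of peaks, other filters, merged peaks, other locus bounds, only the compared groups, the replicate number as a block, each library left out and, chosen after seeing the data, TMM factors of the peaks for the loci. Named were the 6 members, 4 neighbours, the intergenic peaks of smallest p in each contrast, the 5 strongest peaks, the pathway genes called in a contrast or of smallest p, and the 2 genes most like each member, except items not reported here. Others named with values were chosen after their values were seen, as was the shared promoter word. Promoter sequences are RefSeq's. The members and gene lists were chosen with earlier results of these data known. The fit was tested on simulated data.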

Additional observations from a re-analysis of the deposited data

Results flagged for a closer look

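Within each group of 6 libraries, the lowest and highest log2 CPM were set against the others by Dixon's gap test at its 95% critical value. Chance passes this in about 1 of 20 groups. It was run on part of the described peaks and loci, not on all of them. Of 78 groups examined, 4 were passed. At the CXCL8 start, belinostat 2 stood low with 1.282 log2 CPM, where the other belinostat libraries ran from 1.94 to 2.197. At the CXCL5 start, belinostat 6 stood high with 2.998, where the others ran from 2.32 to 2.54. At the CXCL2 start, unstimulated 6 stood high with 4.573, where the others ran from 4.29 to 4.38. At the PF4 start, DMSO 4 stood low with 0.5267, where the others ran from 1.02 to 1.29. A different library stood apart at each start.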

How the results depend on the processing

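Counts moved with the scaling of the libraries and, in the belinostat contrast, with single libraries. In the cytokine contrast, 5 opened peaks became 10 with library totals and 1 with TMM over the weaker 50% of peaks, and 9 closed peaks became 2 and 29, 1 with loess offsets and 4 with DESeq2. Over all 334857 peaks, 31861 opened with TMM, 54265 with library totals and 7170 with the weaker 50%. Closed were 32570 with TMM, 10894 with library totals, 90333 with the weaker 50%, 5931 with loess offsets and 18587 of 334853 with DESeq2. The 3 higher member loci became 1 with TMM over 10 kb bins, 0 with TMM over the weaker 50% of peaks (where 3 were lower) and 1 with the factors of the peaks. Of all 18893 loci, 3687 were higher in the main fit, 2345 with the bins and 2009 with the factors of the peaks. With the weaker 50%, 307 were higher and 15601 lower. In the belinostat contrast, 3 closed peaks became 1 with TMM over the weaker 50% of peaks and 0 with loess offsets. Over all peaks 5865 closed with TMM, 4330 with the weaker 50% and 4762 with loess offsets. The 1 lower locus became 0 with TMM over the weaker 50% of peaks, DESeq2, only the compared groups or peaks within 10 kb of the gene. Of all loci, 703 were lower in the main fit. Under these settings, in the same order, 2, 599, 390 and 921 of 19398 were lower. In the residual contrast, 5 opened peaks became 20 with library totals, 0 with the weaker 50%, 9 with loess offsets and 3 with an average log2 CPM over 0, and 13 closed peaks became 5, 33 and 5 under the first 3 of these and 8 with DESeq2. Over all peaks 56111 opened with TMM, and 101897, 8005, 14761 and 25293 of 200098 under these settings in the same order. Closed were 45962 with TMM, 21124, 107781 and 14533 under the first 3, and 33828 of 334853 with DESeq2. The 4 higher residual loci became 2 with TMM over 10 kb bins, 0 with the weaker 50%, 2 with loess offsets and 1 with the factors of the peaks, and lower ones became 1, 4, 1 and 1 under these and 1 with library totals. Of all loci, 5104 were higher in the main fit, and 2842, 276, 3830 and 2427 under these in the same order. Lower were 4576 in the main fit, 11443, 16016, 3277 and 12456 under these, and 5519 with library totals.

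Signs turned in the cases given here, which are not all of them. With TMM over the weaker 50% of peaks, the median cytokine log2 fold change of the 6 member loci was -0.37, against 0.33 in the main fit. Over all loci that median was -0.74, against -0.02. For the 73 peaks it was -0.54 with the weaker 50%, against -0.32 over all peaks. Loess offsets gave log2 fold changes of 0.31 (CXCL3 start), 0.24 (CXCL2 start), 0.056 (chr4:73916994-73917752) and -0.027 (CXCL8 locus) in the cytokine contrast, and in the residual contrast 0.31 (CXCL1 start), 0.51 (CXCL3 start), 0.022 (CXCL2 start), 0.22 (chr4:73916994-73917752), 0.19 (chr4:74157667-74158606) and -0.076 (CXCL6 locus). TMM over the weaker 50% of peaks gave cytokine values of -0.41 (CXCL1 locus), -0.60 (CXCL2 locus), -0.52 (CXCL3 locus) and -0.24 (CXCL8 locus), and residual values of -0.54 (CXCL6 start), -0.79 (CXCL1 locus), -0.59 (CXCL3 locus), -0.53 (CXCL6 locus) and -0.27 (CXCL8 locus). The CXCL3 residual was 0.30 at the start with library totals and -0.0028 at the locus with the factors of the peaks. What sets the trend with peak strength was not tested.

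Leaving out 1 library at a time gave 4 to 6 opened and 6 to 11 closed peaks in the cytokine contrast, 0 and 0 to 7 in the belinostat contrast and 1 to 5 and 9 to 14 in the residual contrast. Over all peaks 18497 to 35956 opened and 20700 to 37123 closed in the cytokine contrast. The belinostat contrast had 1010 to 2864 and 3900 to 8703, and the residual contrast 37404 to 65269 and 38926 to 50162. Higher and lower loci were 2 to 3 and 0, 0 and 0 to 2, and 3 to 4 and 0 to 1. With the replicate block, 5 peaks opened and 9 closed after cytokines, 0 and 4 after belinostat. Libraries of equal number correlated at -0.133 to 0.106, so the numbers were not taken to pair them. In the residual contrast DESeq2 called 4 opened peaks. Of 276 recomputed counts, 49 moved past 1.5 times the main count. Of the recomputed fold changes of single peaks and loci, 1026 were counted as the same, 108 as weaker, 33 as stronger and 21 as reversed. The count of reversed values does not take in every turn of sign. The cause of these shifts was not tested. The belinostat libraries were the shallowest and the weakest peaks held few fragments, which limits what could be detected there.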
